A study of Mus musculus with 8 samples.

Results

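The genes described here make, sense and move cholesterol and fatty acids, and 36 of them were taken from the 47937 genes of the count table. They were chosen by name and role and not by a cut on a measured value, though with earlier results of these data known. They were read in bulk RNA-seq libraries of mature CD8SP TCRβ+MHC-I high thymocytes, the CD8 single-positive T cells that are about to leave the thymus. The libraries came from 8 mice aged 6 to 7 weeks, with 4 Ndrg3ctrl animals that carried a single floxed Ndrg3 allele (Ndrg3 +/fl;Lck-cre+) and 4 Ndrg3TKO animals that carried both alleles floxed (Ndrg3 fl/fl;Lck-cre+). Cre was present in both groups and was driven by the proximal Lck promoter, which is active from the early T lineage stages of the thymus, so the control cells are heterozygous for the deletion and the comparison is between loss of both copies and loss of a single copy.

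Of the 36 genes, 35 had enough counts to be tested. The remaining gene, Scd1, had 0 to 3 counts in every library, at or under the floor of 3 counts. By role, 7 members belong to the mevalonate pathway, 11 to the steps from squalene to cholesterol, 5 to the control of SREBP, 5 to LXR and its targets, 4 to sterol transport and storage and 4 to fatty acid synthesis.

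Cells build cholesterol from acetyl-CoA through mevalonate and squalene. When sterols in the endoplasmic reticulum run low, SCAP escorts the precursor of the transcription factor SREBP2 to the Golgi, where it is cleaved and freed to switch on the genes of this pathway, and INSIG proteins hold the SCAP complex back when sterols are plentiful. Oxysterols activate the nuclear receptors LXRα and LXRβ, which switch on the cholesterol exporters ABCA1 and ABCG1 and, through SREBP1, genes of fatty acid synthesis. T cells are known to raise cholesterol and fatty acid synthesis when they are activated and divide, and resting T cells keep it lower.

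The labelled cell type was checked against its markers. Transcripts of 7 CD8SP markers (Cd8a, Cd8b1, Cd3e, Cd3g, Cd5, Ccr7 and H2-K1) summed to 5252 to 6060.3 CPM (counts per 1000000 counts of the scaled library) in Ndrg3ctrl and 5380.5 to 5821 CPM in Ndrg3TKO, whereas Cd4 and Zbtb7b together stayed between 0.393 and 1.88 CPM in all 8 libraries. The 7 macrophage and monocyte markers, which define cells that are rich in several of the transcripts below, summed to 3.68 to 5.48 CPM in Ndrg3ctrl and 4.47 to 4.94 CPM in Ndrg3TKO, with C1qa and Mertk at no more than 3 counts in any library. The 3 B cell markers summed to 11.1 to 13.1 CPM in Ndrg3ctrl and 8.41 to 9.42 CPM in Ndrg3TKO, with Ms4a1 at 0 in every library and Cd79b holding most of the sum. Of the markers in the 8 lists that had enough counts to be tested, 0 passed the adjusted threshold by edgeR's quasi-likelihood test. The erythroid markers and most macrophage and monocyte markers had too few counts for it. Cd79b lay nearest the threshold, with a log2 fold change of -0.43 (edgeR adjusted p = 0.0529) and no overlap between the groups. The 4 markers of DP thymocytes, the less mature double-positive stage, summed to 16.6 to 24.9 CPM in Ndrg3ctrl and 20.8 to 28.2 CPM in Ndrg3TKO. Most of this was Dntt, the terminal transferase of antigen receptor rearrangement, which read 18.7, 14.6, 14.8 and 14.1 CPM in Ndrg3ctrl and 25.4, 19.1, 21.02 and 19.4 CPM in Ndrg3TKO, without overlap (log2 fold change 0.45, edgeR adjusted p = 0.0783), whereas Rag1 overlapped between the groups and Ptcra had at most 3 counts in any library. Ccr7, a chemokine receptor of mature thymocytes, had a log2 fold change of -0.26 (edgeR adjusted p = 0.135) with overlapping groups. The part of these markers in the differences below was not tested. Total counts ranged from 21126698 in Ndrg3ctrl replicate 2 to 32668081 in Ndrg3TKO replicate 2. Y-linked transcripts were present in Ndrg3ctrl replicate 2 and in Ndrg3TKO replicates 2 and 3 (340.5 to 416 CPM) and were at 0.0752 CPM or less in the other 5 libraries, so the groups were not balanced for them. Ndrg3 itself read 79.3, 81.5, 81.2 and 80.9 CPM in Ndrg3ctrl replicates 1 to 4 and 50.4, 48.4, 53.1 and 55.3 CPM in Ndrg3TKO, and fell by 0.64 on the log2 scale (SE 0.05, edgeR adjusted p = 1.04e-05). The count covers the whole gene and the floxed part is a single exon, so the remaining reads do not measure functional transcript.

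In CD8SP thymocytes the genes of this network were transcribed at very unequal levels. Per kilobase of annotated exon, the scale used for every comparison between genes, the member with the highest level in Ndrg3ctrl was Scd2, a stearoyl-CoA desaturase that makes monounsaturated fatty acids, at 90.6 ± 7.14 CPM per kb (SD, n = 4). Next came Npc2, a lysosomal carrier of cholesterol, at 53.5 ± 3.93, Fasn, the fatty acid synthase, at 40.9 ± 3.12, and Abcg1, an exporter of cholesterol, at 39.8 ± 3.26, and the last 2 could not be ranked against each other because their libraries overlapped. By mean, the genes for the precursors of SREBP1 and SREBP2 followed, with Srebf1 at 36.3 ± 1.32 and Srebf2 at 28.4 ± 2.22 CPM per kb. The libraries of Srebf1 overlapped those of Fasn and Abcg1, so it could not be ranked against them either.

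The enzymes of cholesterol synthesis lay far lower. The highest of the 18 enzymes was Ebp, the sterol isomerase, at 13.4 ± 1.5 CPM per kb, close to Hmgcs1, the HMG-CoA synthase at the entry of the mevalonate pathway, at 12.5 ± 1.01. The lowest of all were Idi1 (isopentenyl diphosphate isomerase, 1.16 ± 0.257), Fdps (farnesyl diphosphate synthase, 0.928 ± 0.148) and Sqle (squalene epoxidase, 0.724 ± 0.0820). Of the LXR genes, Nr1h2, which encodes LXRβ, stood at 22.0 ± 1.89 CPM per kb and Nr1h3, which encodes LXRα, at 0.483 ± 0.117, the lowest level of any member tested and only 15 to 47 counts in a library. Within SREBP control the lowest was Insig1 at 5.28 ± 0.292, within transport and storage it was Stard4, a sterol carrier, at 4.54 ± 0.157, and among the 3 tested genes of fatty acid synthesis it was Acaca, the cytosolic acetyl-CoA carboxylase, at 4.90 ± 0.520. Idi1, Fdps and Acaca share 25.3 to 30.4% of the 50-base stretches of their transcripts with other genes or pseudogenes. Their levels, and so their places among the lowest, are uncertain. The median coefficient of variation over the members was 8.02% among Ndrg3ctrl libraries and 6.63% among Ndrg3TKO libraries.

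**Figure D1:**
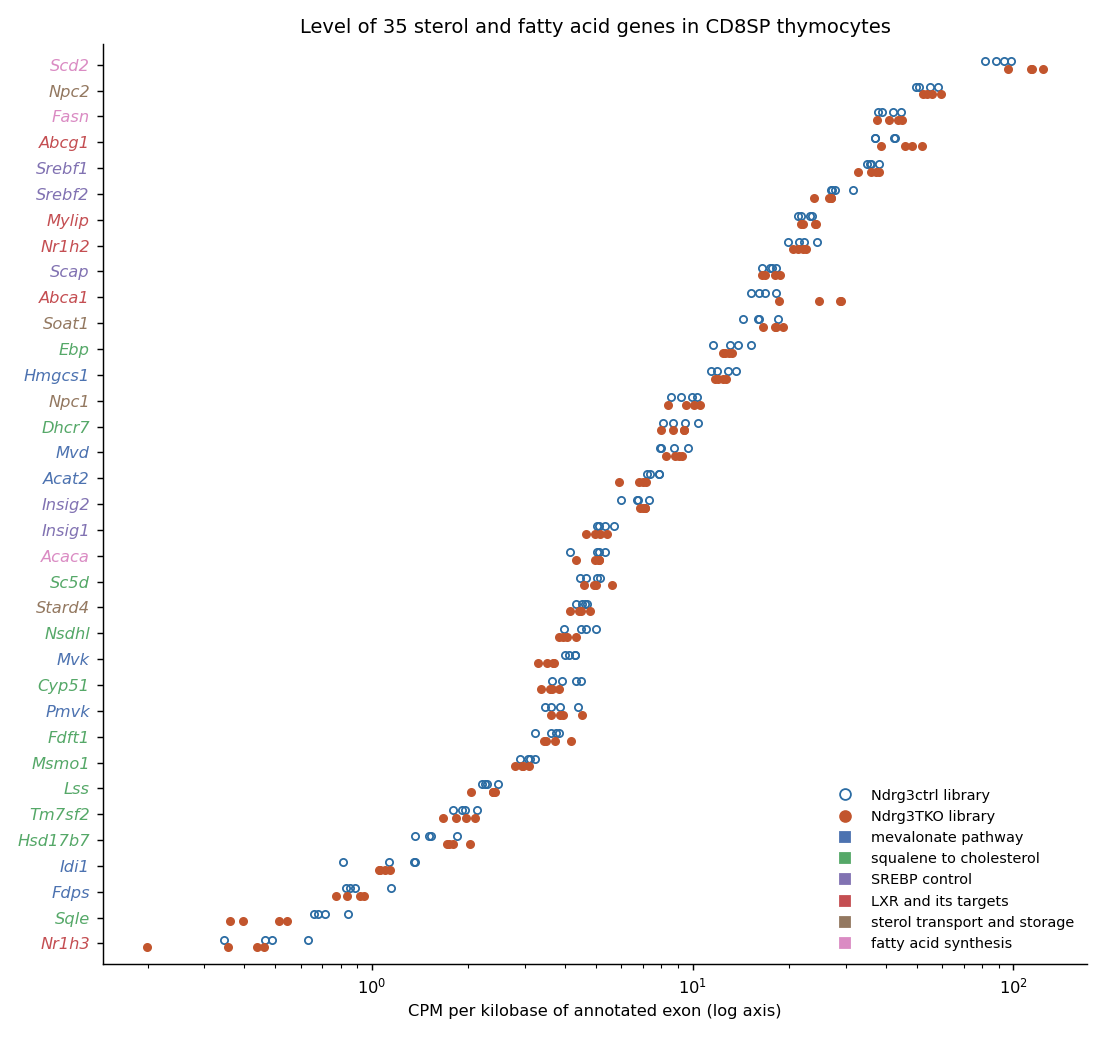
Level of each of the 35 tested members, as CPM per kilobase of annotated exon on a log axis, with 1 open point per Ndrg3ctrl library and 1 filled point per Ndrg3TKO library (4 each); the colour of a gene name gives its role. By mean in Ndrg3ctrl, Scd2, Npc2, Fasn and Abcg1 lead the order, and Idi1, Fdps, Sqle and Nr1h3 close it. The places of Idi1 and Fdps are uncertain, because part of their sequence recurs in other genes. The points of the groups separate only for Abca1, Sqle, Mvk, Acat2 and Srebf2.

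Loss of both Ndrg3 copies went with small differences in these genes, and the largest were in single genes of different roles. By the quasi-likelihood test of edgeR, adjusted over 14633 genes by the Benjamini-Hochberg method, 0 of the 35 tested members passed an adjusted p of 0.05, where 1.15% of all tested genes did. DESeq2 called 3 members (Abca1, Scd2 and Sqle) where it called 1.93% of the genes it tested. At an unadjusted edgeR p under 0.05 there were 6 members, of which 3 were higher in Ndrg3TKO (Abca1, Scd2 and Abcg1) and 3 lower (Sqle, Mvk and Acat2), against a background of 10.9% of all tested genes (5.34% higher, 5.51% lower). The Ndrg3TKO libraries lay all above the Ndrg3ctrl libraries in 1 member, Abca1, where 3.44% of all tested genes did so, and all below them in 4 members, Sqle, Mvk, Acat2 and Srebf2, where the background was 3.59% (7.04% for both directions together). In these bulk libraries, fewer cells with a transcript and less of it per cell cannot be told apart.

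The members as a whole were centred near 0. Of the 35, 16 had a positive and 19 a negative log2 fold change, with a median of -0.01 beside -0.0033 over all tested genes. The median size of the log2 fold change was 0.0623 beside 0.0883 over all tested genes, and 4 members (Sqle, Nr1h3, Abca1 and Scd2) exceeded 0.25 in size, or 11.4% beside 15.8% of all tested genes and 9.78% of the 12080 tested genes whose Ndrg3ctrl level lay in the CPM range of the members. Nr1h3, the member with the fewest counts, did not keep that size when single libraries were left out: its value was -0.20 without Ndrg3TKO replicate 3 and -0.23 without Ndrg3ctrl replicate 3. The 95% interval of the fit lay within a 1.5-fold difference either way for 32 members, and the others were Sqle, Abca1 and Nr1h3.

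**Figure D2:**
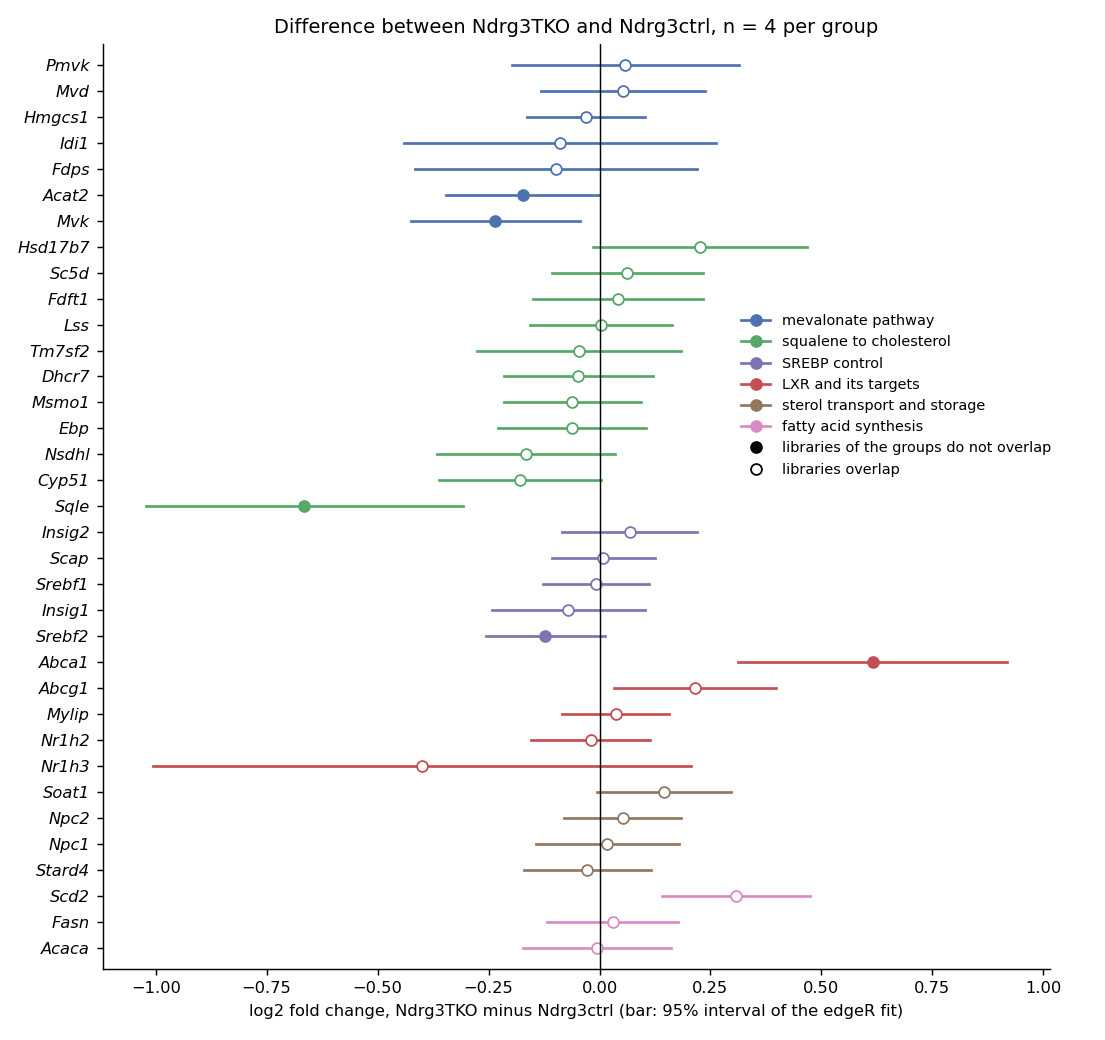
Log2 fold change of each member between Ndrg3TKO and Ndrg3ctrl (points) with the 95% interval of the edgeR fit (bars), n = 4 per group, ordered by role; filled points mark members in which the libraries of the groups did not overlap. Sqle (-0.67) and Abca1 (0.62) stand farthest from 0, and most other bars cross it.

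The promoters of the members whose libraries separated are shown next to that of Hmgcs1. Hmgcs1 was the sole member whose window held an exact match to TCACNCCAC, the classical sterol regulatory element, and other forms were not searched for. The sequences let the reader see the letters that SREBP2 and its partner factors are known to read. The windows are the 250 bases before the RefSeq start of each gene (GRCm38.p6), and in the sequences printed here stretches within exons of GENCODE M21 were left out. Of the 36 members, 28 had a window, and Sqle, Scd1, Scd2, Abcg1, Npc1, Stard4, Fdps and Fdft1 had none. Capitals mark the sterol regulatory element TCACNCCAC, the CCAAT box CCAAT, which is the site of NF-Y, and the E-box CACGTG, each searched on both strands and printed 5′ to 3′ along the gene. The lines below are Abca1 (chr4:53159896-53160145, minus strand), Mvk (chr5:114444061-114444268, plus strand), Acat2 (chr17:12960748-12960975, minus strand), Srebf2 (chr15:82147019-82147180, plus strand) and Hmgcs1 (chr13:119690101-119690350, plus strand).
Abca1: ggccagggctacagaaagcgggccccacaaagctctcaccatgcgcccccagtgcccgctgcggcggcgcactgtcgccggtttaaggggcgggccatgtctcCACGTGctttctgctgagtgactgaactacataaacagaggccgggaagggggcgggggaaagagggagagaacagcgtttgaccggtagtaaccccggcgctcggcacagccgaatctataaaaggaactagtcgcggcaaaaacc
Mvk: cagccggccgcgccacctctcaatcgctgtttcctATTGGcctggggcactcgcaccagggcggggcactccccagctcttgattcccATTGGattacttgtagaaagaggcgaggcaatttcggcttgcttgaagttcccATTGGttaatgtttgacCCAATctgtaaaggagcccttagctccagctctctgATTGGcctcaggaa
Acat2: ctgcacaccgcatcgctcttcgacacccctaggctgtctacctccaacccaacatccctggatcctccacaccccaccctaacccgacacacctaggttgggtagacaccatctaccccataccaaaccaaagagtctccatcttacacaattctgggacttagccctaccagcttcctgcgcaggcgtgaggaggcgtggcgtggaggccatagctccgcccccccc
Srebf2: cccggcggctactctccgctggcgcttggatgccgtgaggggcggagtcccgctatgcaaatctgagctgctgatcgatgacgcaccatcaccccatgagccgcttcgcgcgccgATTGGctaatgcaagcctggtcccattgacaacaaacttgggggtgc
Hmgcs1: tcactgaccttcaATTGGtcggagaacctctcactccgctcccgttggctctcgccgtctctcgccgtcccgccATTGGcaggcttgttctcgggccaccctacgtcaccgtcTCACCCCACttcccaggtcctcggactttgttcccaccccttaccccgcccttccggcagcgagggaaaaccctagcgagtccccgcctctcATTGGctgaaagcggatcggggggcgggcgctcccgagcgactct

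The printed stretch of Mvk held 5 CCAAT boxes, that of Hmgcs1 3 with 1 sterol regulatory element, that of Srebf2 1, and those of Abca1 and Acat2 0, and Abca1 held 1 E-box. The shares that follow were taken over whole windows, for members and for all genes, and 22 of the 37 member windows held bases of an annotated exon (4 lay wholly within exons). The windows of all genes were not limited to genes tested in these cells. The shares therefore do not compare the members with other transcribed genes. Over the 28 members the CCAAT box was in 23 of 37 windows, or 62.2%, beside 33.8% of all 32851 windows, and the GC box GGGCGG, the site of Sp1, was in 67.6% beside 32.7%. The sterol regulatory element was in 1 of the 37 windows beside 1.05% of all, and the E-box in 16.2% beside 6.02%. The direct repeat GGTCANNNNGGTCA, the letters used here to look for LXR sites, was in 0 beside 0.0457%. These are exact matches of letters only, so sites with other letters were not counted. The search therefore does not show that a window lacks an LXR site or a sterol regulatory element, that of Abca1 included. Windows of this length also leave out sites farther away. Genes with and without CCAAT boxes were found both among the members with separated libraries and among those near 0: Mvk, with 5 boxes, had a log2 fold change of -0.24, and Hmgcs1, with 3, of -0.03.

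Abca1 and Scd2 had the largest positive log2 fold changes among the members, followed by the enzyme Hsd17b7 at 0.23 and the exporter Abcg1 at 0.22. Abca1 (chr4:53030787-53159895, minus strand), which encodes the transporter that loads cholesterol onto lipid-poor apolipoprotein particles, read 174, 189, 167 and 157 CPM in Ndrg3ctrl replicates 1 to 4 and 258, 299.7, 302 and 193 CPM in Ndrg3TKO replicates 1 to 4. All 4 Ndrg3TKO libraries lay above all Ndrg3ctrl libraries, but replicate 4 did so by only 4.19 CPM, and the SD was 50.9 CPM in Ndrg3TKO and 13.3 CPM in Ndrg3ctrl. The mean of Ndrg3TKO was 53.2% higher by the fit (95% interval 24.1 to 89.1%), a log2 fold change of 0.62 with an SE of 0.13 and an edgeR adjusted p of 0.0862. Without Ndrg3TKO replicate 4 the log2 fold change was 0.74 and the adjusted p was 0.000186. The adjusted p was 4.58e-05 by DESeq2 and 0.241 in edgeR with no filter on low counts.

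Abcg1 (chr17:31057675-31117988, plus strand), the exporter that passes cholesterol to mature lipoprotein particles, read 310.5, 311, 269.6 and 269.9 CPM in Ndrg3ctrl and 352, 379.8, 335 and 282 CPM in Ndrg3TKO. Here replicate 4 of Ndrg3TKO lay below the upper pair of Ndrg3ctrl libraries, so the groups overlapped. The log2 fold change was 0.22 (SE 0.08, edgeR adjusted p = 0.362). Mylip, the ubiquitin ligase that LXR induces to remove lipoprotein receptors, had a log2 fold change of 0.04 (SE 0.06) at 72.8 ± 3.55 CPM in Ndrg3ctrl and 74.6 ± 4.36 CPM in Ndrg3TKO (SD, n = 4). The receptors Nr1h2 and Nr1h3 had log2 fold changes of -0.02 (SE 0.06) and -0.40 (SE 0.28), and the 95% interval of Nr1h3 ran from -1.01 to 0.21. With the replicate number and the Y-linked counts both in the fit, Nr1h3 was at -0.04. Among the 3 LXR targets grouped under that role, both exporters were highest in Ndrg3TKO replicates 1 to 3. The 95% interval of Mylip ran from -0.08 to 0.16. Srebf1, through which LXR acts on fatty acid synthesis, was grouped under the control of SREBP. Its log2 fold change was -0.01 (SE 0.06).

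Scd2 (chr19:44293674-44306864, plus strand) read 511, 538, 483 and 447 CPM in Ndrg3ctrl and 620.4, 675, 627 and 526 CPM in Ndrg3TKO. Ndrg3TKO replicates 1 to 3 were above every control, and replicate 4 lay between the Ndrg3ctrl libraries. The log2 fold change was 0.31 (SE 0.08, edgeR adjusted p = 0.0873), or 23.8% higher (95% interval 10.3 to 38.9%). The adjusted p was 0.0163 by DESeq2, 0.0067 in edgeR with no filter on low counts and 0.0326 without Ndrg3TKO replicate 4. The other tested genes of fatty acid synthesis stayed near 0, with Fasn at 0.03 (SE 0.07) and Acaca at -0.01 (SE 0.08) on the log2 scale. Of the 50-base stretches in Scd2 transcripts, 3.97% are also found in other genes, chiefly its neighbours of the Scd family.

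Among the enzymes of cholesterol synthesis the largest negative value was in Sqle (chr15:59315077-59331192, plus strand), which encodes squalene epoxidase, a rate-limiting oxygen-dependent step after squalene. It read 3.65, 4.67, 3.96 and 3.77 CPM in Ndrg3ctrl and 2.85, 2.20, 2.00 and 3.01 CPM in Ndrg3TKO, or 60 to 117 raw counts per library. The groups did not overlap, and Ndrg3TKO replicates 2 and 3 held the lowest values. The log2 fold change was -0.67 (SE 0.17, edgeR adjusted p = 0.0842), which is a difference of -37.0% (95% interval -50.8 to -19.3%). The adjusted p was 0.0214 by DESeq2 and 0.0312 in edgeR with no filter on low counts. When single libraries were left out, the edgeR adjusted p ran from 0.0901 to 0.244.

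Mvk (chr5:114444269-114460591, plus strand), the mevalonate kinase, read 11.0, 11.5, 10.7 and 11.5 CPM in Ndrg3ctrl and 8.82, 9.83, 9.92 and 9.43 CPM in Ndrg3TKO, with no overlap and the narrowest spread of the separated members. Its log2 fold change was -0.24 (SE 0.09, edgeR adjusted p = 0.324). Acat2 (chr17:12942890-12960747, minus strand), the acetyl-CoA acetyltransferase that starts the pathway, read 18.7, 20.05, 18.3 and 20.04 CPM in Ndrg3ctrl and 15.05, 17.8, 17.3 and 18.2 CPM in Ndrg3TKO. Its log2 fold change was -0.17 (SE 0.08, edgeR adjusted p = 0.458), the groups were 0.172 CPM apart at their nearest libraries, and 39.1% of its 50-base stretches are shared with Acat3 or Tcp1, so reads could have been split among these genes.

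Most other enzymes of the pathway lay nearer 0 than Sqle and Mvk. The mevalonate genes had a median log2 fold change of -0.09 with 5 of 7 negative, and the genes from squalene to cholesterol a median of -0.05 with 7 of 11 negative, beside 51.2% of all tested genes below 0. Cyp51, the lanosterol demethylase, and Nsdhl, a sterol dehydrogenase, had values of -0.18 (SE 0.09) and -0.17 (SE 0.09), while Hsd17b7, a sterol ketoreductase of the same stretch of the pathway, had 0.23 (SE 0.11), all 3 with overlapping groups and edgeR adjusted p from 0.468 to 0.563. Hmgcs1 was at -0.03 (SE 0.06) with an interval of -0.16 to 0.10, and Lss, the lanosterol synthase, at 0.00 (SE 0.07). Summed over the 18 enzymes, the level was 342, 361, 329 and 315 CPM in Ndrg3ctrl and 315, 338, 327 and 322 CPM in Ndrg3TKO, with means of 337 ± 19.7 and 325 ± 9.81 CPM (SD, n = 4) that differed by less than the spread of the Ndrg3ctrl libraries. Values of Fdps, Fdft1, Idi1 and Acaca carry a limit of their own, since 25.3 to 30.4% of their 50-base stretches recur in other genes or pseudogenes.

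The genes of the sterol sensors had small differences. Srebf2 (chr15:82147181-82205379, plus strand) read 195, 228, 199.7 and 195 CPM in Ndrg3ctrl and 191, 194, 194 and 171 CPM in Ndrg3TKO. All Ndrg3TKO libraries were below all Ndrg3ctrl libraries, by 0.314 CPM at the nearest, and the log2 fold change was -0.12 (SE 0.06, edgeR adjusted p = 0.512). It was -0.07 without Ndrg3ctrl replicate 2, whose value of 228 CPM stood apart. Srebf1, which encodes SREBP1, and Scap differed by -0.01 (SE 0.06) and 0.01 (SE 0.05), and Insig1 and Insig2 by -0.07 (SE 0.08) and 0.07 (SE 0.07). The transcripts of lysosomal and cytosolic sterol transport behaved likewise. Npc1 and Npc2, which carry cholesterol out of lysosomes, differed by 0.02 (SE 0.08) and 0.05 (SE 0.06), Stard4 by -0.03 (SE 0.07), and Soat1, which esterifies cholesterol for storage, by 0.15 (SE 0.07, edgeR adjusted p = 0.482).

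**Figure D3:**
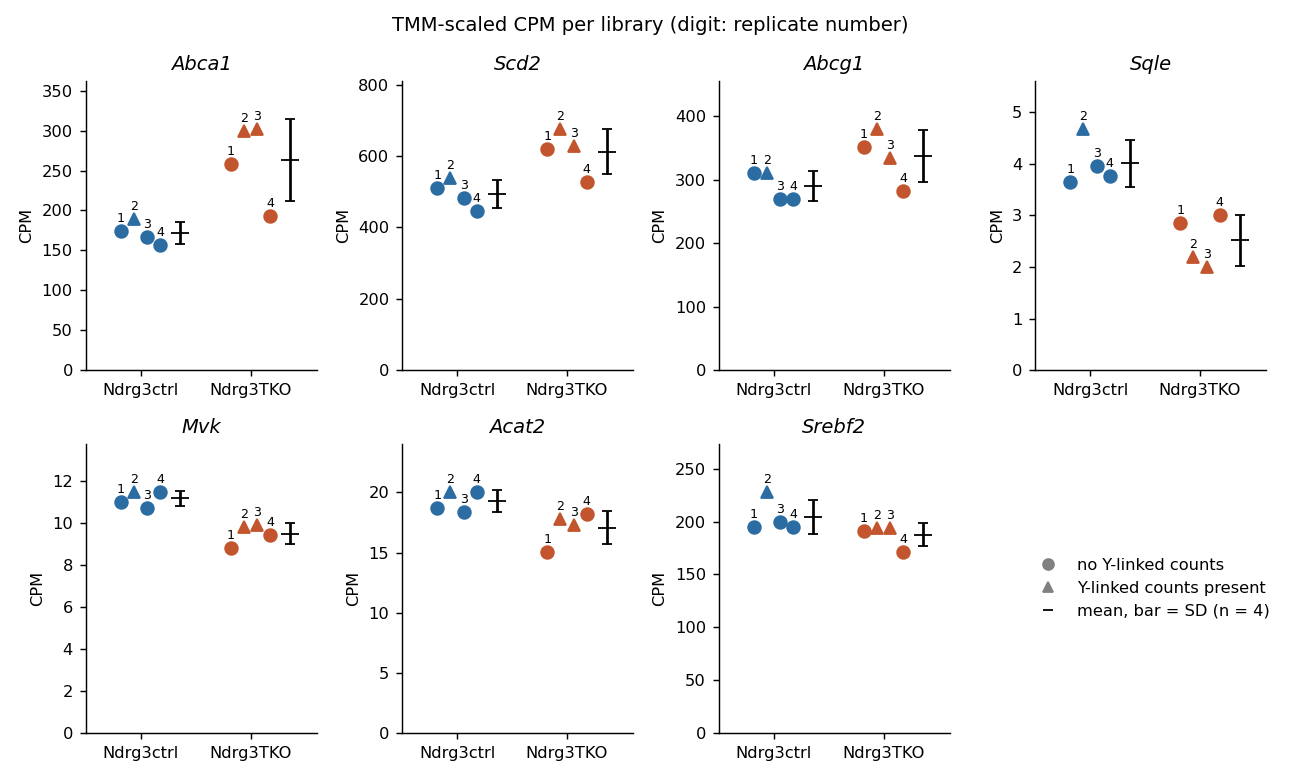
TMM-scaled CPM of 7 members in every library, with the replicate number beside each point, triangles for libraries with Y-linked counts, and the mean with its SD (n = 4) beside each group; all axes start at 0. Abca1, Scd2 and Abcg1 are highest in Ndrg3TKO replicates 1 to 3 and replicate 4 lies nearest the controls, while Sqle is lowest in Ndrg3TKO replicates 2 and 3.

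The libraries themselves differed in ways that ran across the members. Ndrg3ctrl replicate 2 was the highest control in 20 of the 35 members, or 57.1%, beside 30.0% of all tested genes, and it was the highest control in all 7 members described by library above. Ndrg3TKO replicate 2 was the highest of its group in 17 members, or 48.6% beside 28.0% of all tested genes. Ndrg3ctrl replicate 4 was the lowest control in 18 members, or 51.4% beside 24.3%. In Ndrg3TKO, replicates 1 and 4 were each the lowest in 14 members, or 40.0% beside 26.5% and 25.5% of all tested genes, and for replicate 4 these included Abca1, Abcg1, Scd2 and Srebf2. Since Y-linked counts were present in 1 Ndrg3ctrl and 2 Ndrg3TKO libraries, the differences were also taken within each kind. Among the 5 libraries without Y-linked counts (3 Ndrg3ctrl, 2 Ndrg3TKO), the difference in mean log2 CPM was 0.43 for Abca1, 0.25 for Scd2, 0.16 for Abcg1, -0.37 for Sqle, -0.28 for Mvk, -0.20 for Acat2 and -0.12 for Srebf2. Among the 3 libraries with them (1 Ndrg3ctrl, 2 Ndrg3TKO), it was 0.67 for Abca1, 0.27 for Scd2, 0.20 for Abcg1, -1.15 for Sqle, -0.22 for Mvk, -0.19 for Acat2 and -0.23 for Srebf2. The direction was the same in both kinds for all 7 members. For Abca1, Sqle, Mvk, Acat2 and Srebf2 this was fixed in advance, because groups that do not overlap keep their direction under any split. Only Abcg1 and Scd2 could have differed. The size of the difference in Sqle and Abca1 was larger where Y-linked counts were present, a contrast that rests on 3 libraries and was not tested. With the presence of Y-linked counts as a covariate in the edgeR fit, 3 members passed the threshold, Abca1 (0.52, adjusted p = 0.00843), Scd2 (0.26, adjusted p = 0.0352) and Sqle (-0.64, adjusted p = 0.0494), where 2.99% of all tested genes did.

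**Figure D4:**
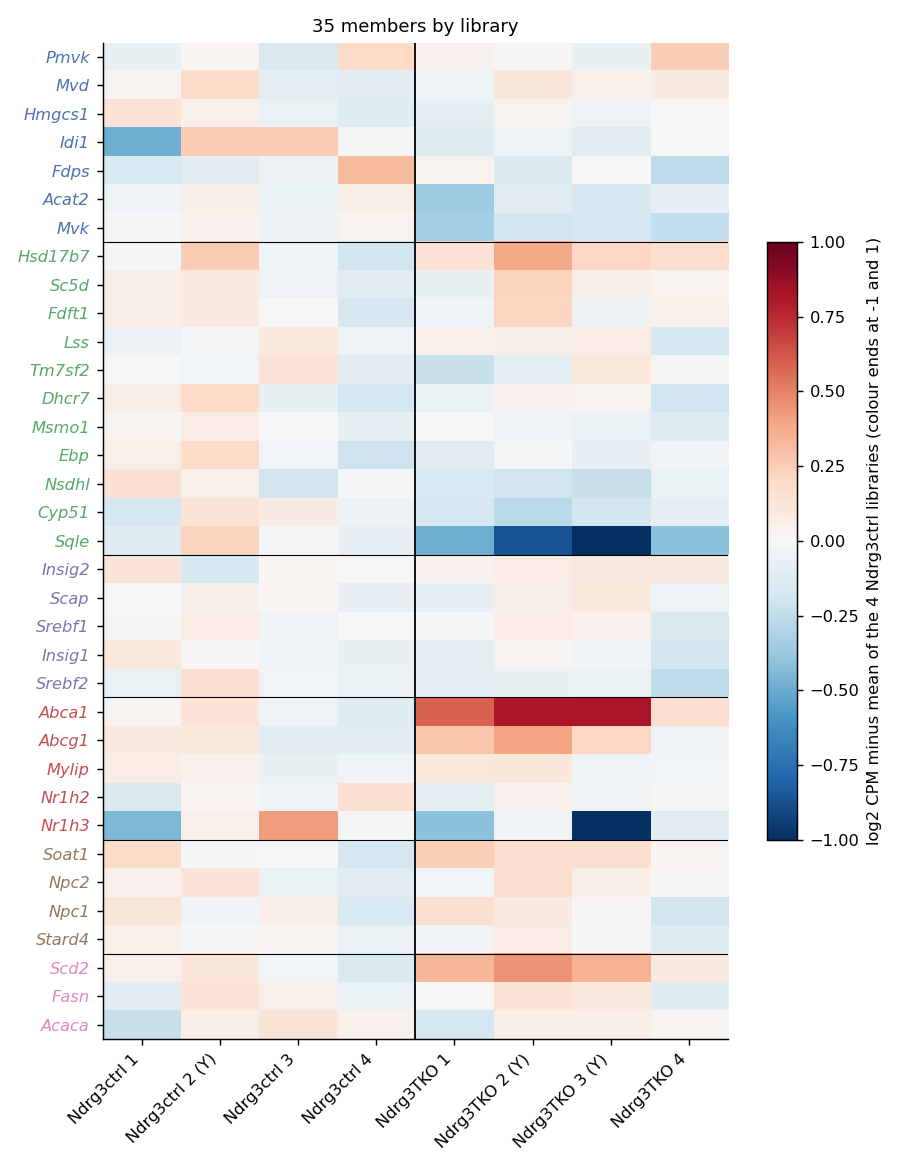
Log2 CPM of the 35 members in each library minus the mean of the 4 Ndrg3ctrl libraries, grouped by role (coloured gene names, lines between roles), with (Y) marking libraries with Y-linked counts and the colour scale ending at -1 and 1. The strongest colours are those of Abca1, Sqle and Scd2 in Ndrg3TKO and of the sparsely counted Nr1h3 and Idi1, and most rows stay pale in both groups.

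Further genes of the pathways were read from 5 lists of 70 genes, of which 62 were tested. By edgeR, 1 of the 62 passed the threshold (1.15% of all tested genes did), and it was lower in Ndrg3TKO (0.355% of all tested genes). Elovl7, an elongase of long-chain fatty acids, read 10.8, 12.1, 12.1 and 14.6 CPM in Ndrg3ctrl and 6.86, 9.98, 8.28 and 8.14 CPM in Ndrg3TKO, with no overlap, and fell by 0.58 on the log2 scale (SE 0.13, edgeR adjusted p = 0.0415). It missed the threshold when any library other than Ndrg3TKO replicate 2 was left out (adjusted p from 0.0506 to 0.122).

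The other lists had 0 genes past the threshold. The isoprenoid branch, which makes prenyl groups, dolichol and ubiquinone side chains, had 0 of 12 genes past the threshold by edgeR (0 at an unadjusted p under 0.05) and a median log2 fold change of -0.04. SREBP processing and sterol-regulated degradation had 0 of 10 (1 at an unadjusted p under 0.05, Erlin1 at -0.25) and a median of 0.03. Uptake, transport, storage and oxysterols had 0 of 12 past the threshold (0 at an unadjusted p under 0.05) and a median of -0.01, fatty acid supply, elongation and desaturation 1 of 15 (4 at an unadjusted p under 0.05, with 2 higher and 2 lower) and a median of -0.02, and fatty acid oxidation 0 of 13 (1 at an unadjusted p under 0.05, Acaa2 at 0.16) and a median of 0.01. The 4 were Elovl7, Acacb, Acly and Slc25a1. Acly, which makes acetyl-CoA from citrate in the cytosol, had a log2 fold change of -0.18 (SE 0.07, edgeR adjusted p = 0.296), and Slc25a1, the carrier that brings citrate out of mitochondria, of 0.20 (SE 0.09, edgeR adjusted p = 0.41), both with overlapping groups. Acly, Slc25a1, Erlin1 and Acaa2 were picked out after their values were seen. Acacb, the acetyl-CoA carboxylase of the mitochondrial surface whose product restrains fatty acid oxidation, read 9.02, 8.94, 9.28 and 9.18 CPM in Ndrg3ctrl and 11.7, 11.1, 12.8 and 10.3 CPM in Ndrg3TKO without overlap, and its log2 fold change was 0.34 (SE 0.09, edgeR adjusted p = 0.136). The 8 genes with too few counts were Ch25h, Cyp27a1, Cyp7b1, Fads2, Fads3, Me1, Soat2 and Vldlr, so that 3 of the enzymes that make or break down oxysterols were at 0 to 2 counts in every library.

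The calls on Abca1, Scd2 and Sqle changed with the settings of the fit, and their directions did not. Across 16 settings, the log2 fold change of Abca1 ranged from 0.51 to 0.74 and the adjusted p passed 0.05 in 5, that of Scd2 ranged from 0.26 to 0.37 and passed in 6, and that of Sqle ranged from -0.76 to -0.57 and passed in 4. Abcg1 passed in 2 settings and Soat1 in 1, both with positive values throughout. Mvk, Acat2 and Srebf2 had negative values throughout and passed in 0 of the 16 settings. The groups of Abca1, Sqle, Mvk, Acat2 and Srebf2 did not overlap, so leaving out a library left little room for their signs to change. The settings also differed in how much they called in all, with 1.15% of tested genes in edgeR without a block, 0.723% without Ndrg3TKO replicate 4, 1.11% with no filter on low counts, 1.93% in DESeq2, 2.99% with the Y-linked covariate, 5.47% with the replicate number as a block and 8.11% with both terms.

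**Figure D5:**
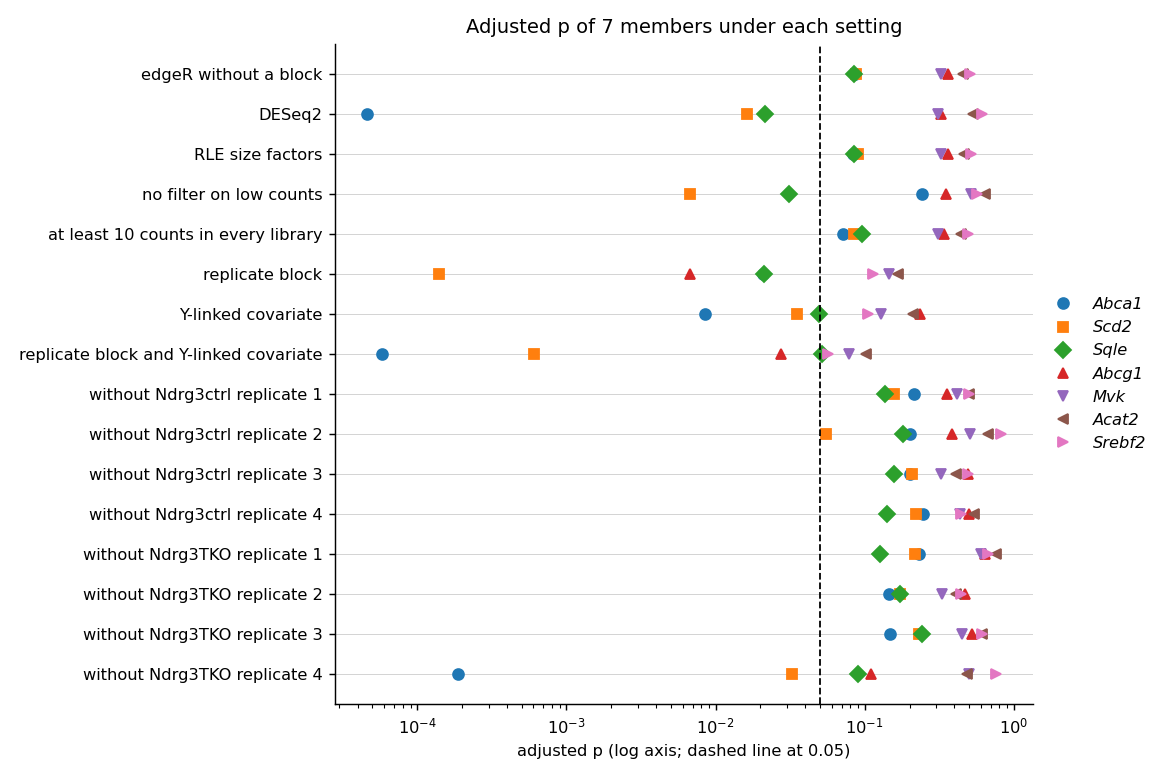
Adjusted p (log axis, dashed line at 0.05) of 7 members under 16 settings, which change the tool, the scaling, the filter, the block or covariate, or leave out 1 library. Abca1, Scd2 and Sqle lie just right of the line in the edgeR comparison without a block and cross it in 5, 6 and 4 settings, whereas Mvk, Acat2 and Srebf2 remain to the right of the line in all.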

How the data were processed

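RNA was taken from sorted CD8SP TCRβ+MHC-I high thymocytes with 4 libraries per group that the labels call biological replicates, and libraries were made with a stranded total RNA kit after depletion of ribosomal RNA. Per the labels and the study's methods, the authors trimmed adapters with cutadapt, mapped reads to GRCm38.p4 with STAR and summed them over genes with featureCounts, and they deposited raw counts that are not normalized. The strand setting and the treatment of reads with several matches are not given in the sources used here, so overlapping and near-identical genes may share reads. All 8 columns of the table were used, and no library duplicated another of its own group, the only pairs checked.

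Gene positions and exonic lengths are those of GENCODE M21 (GRCm38), matched by identifier for 98.69% of the 47937 genes. Counts were filtered with filterByExpr, given TMM factors and fitted by glmQLFit with robust estimation, then tested by glmQLFTest, in edgeR 4.0.16 (R 4.3.3), Ndrg3TKO against Ndrg3ctrl without covariates, over 14633 genes with Benjamini-Hochberg adjustment at 0.05. An SE is the size of the log2 fold change over the square root of F, and CPM are counts per 1000000 counts of the TMM-scaled library size. The floor of 3 counts (0.0921 to 0.147 CPM by library) covers counting error only, because PCR copies cannot be told from separate molecules. DESeq2 1.42.0, RLE size factors, no filter on low counts, at least 10 counts in every library, the replicate number as a block, the presence of Y-linked counts (over 1 CPM) as a covariate, both together, and leaving out each library in turn were the alternatives. The fit was tested on simulated data. Members, role groups, the lists of further pathway genes and the markers were chosen with earlier results of these data known. Members with an adjusted or unadjusted p under 0.05 or groups that did not overlap are given by library, the members with the highest and lowest level of each role are named, and further pathway genes are named at an adjusted p under 0.05 or an unadjusted p under 0.01. Others are named as examples of their role. A few genes of the further lists and markers are not reported here. Shared 50-base stretches were counted between GENCODE M21 transcripts, and promoters are those of RefSeq (GRCm38.p6).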

Additional observations from a re-analysis of the deposited data

Results flagged for a closer look

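In 3 of the 70 groups of 4 libraries checked (35 members, 2 groups each), 1 library stood apart from the other 3 by Dixon's criterion, where chance would give about 3.5. Lss, the lanosterol synthase, read 22.0 CPM in Ndrg3TKO replicate 4 and 25.8 to 26.2 CPM in the other Ndrg3TKO libraries. Srebf2, which encodes the precursor of SREBP2, read 228 CPM in Ndrg3ctrl replicate 2 and 195 to 199.7 CPM in the other Ndrg3ctrl libraries. It also read 171 CPM in Ndrg3TKO replicate 4 and 191 to 194 CPM in the other Ndrg3TKO libraries. Ndrg3ctrl replicate 2 is the library with the lowest total count and the only Ndrg3ctrl library with Y-linked counts, whose part in the value was not tested. Without Ndrg3ctrl replicate 2 the log2 fold change of Srebf2 was -0.07, and without Ndrg3TKO replicate 4 it was -0.08.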

How the results depend on the processing

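Against 168 genes and 0 members past the threshold in the edgeR fit, DESeq2 gave 309 genes and 3 members, no filter on low counts 274 and 2, and the presence of Y-linked counts as a covariate 437 and 3. RLE size factors and a minimum of 10 counts in every library gave 0 members, and leaving out 1 library gave 90 to 158 genes, 0 to 2 members and 0 to 1 of the further pathway genes. The 2 members without Ndrg3TKO replicate 4 were Abca1 and Scd2. The groups share the replicate numbers 1 to 4, but the labels name no shared litter or day. The sample descriptions are numbers that lie close together across both groups for replicate 1, for replicates 2 and 3 together, and for replicate 4. What these numbers stand for is not given. Same-numbered libraries deviated from their group means with correlations of 0.181, 0.415, -0.055 and 0.301. Of the 4 Ndrg3TKO libraries, 3 correlated best with their own number, which is a hint and not a stated pairing. The 3 positive same-numbered pairs were alike in the presence of Y-linked counts and the other pair was not, and of the 5 different-numbered pairs that were alike 4 were also positive (-0.0144 to 0.157), whereas the 7 that were unlike were all negative. Once that number entered the fit as a block, 800 genes, 5 members (Abca1, Abcg1, Scd2, Soat1 and Sqle) and 4 further pathway genes passed, and with the block and the Y-linked covariate together 1187, 3 (Abca1, Abcg1 and Scd2) and 5.

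The sign of a member's log2 fold change turned in 38 cases, each with an adjusted p of at least 0.840. With the Y-linked covariate, Lss was at -0.0155, Scap at -0.022 and Fasn at -0.0138, and with the block beside it Idi1 was at 0.0202, Scap at -0.0168 and Acaca at 0.0155. Leaving out 1 library gave ranges of -0.0731 to 0.0169 for Hmgcs1, -0.00995 to 0.13 for Pmvk, -0.15 to 0.0200 for Fdps, -0.0201 to 0.0745 for Fdft1, -0.0207 to 0.0604 for Lss, -0.0996 to 0.00842 for Tm7sf2, -0.106 to 0.0137 for Dhcr7, -0.0366 to 0.0352 for Srebf1, -0.0237 to 0.0366 for Scap, -0.0653 to 0.0325 for Nr1h2, -0.0625 to 0.00526 for Stard4, -0.031 to 0.0807 for Npc1, -0.00704 to 0.0765 for Fasn and -0.0782 to 0.0464 for Acaca. The causes were not tested. Depth limits Nr1h3, Sqle, Fdps and Idi1 most, and Scd1 could not be tested.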
